A study of Mus musculus with 4 samples.

Results

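The chemokine ligand genes and chemokine receptor genes of the mouse were taken as all genes whose symbol in the deposited records starts with Ccl, Cxcl, Cx3cl or Xcl, or with Ccr, Cxcr, Cx3cr or Xcr, followed by a digit. These were 59 of 27207 genes, 39 of them ligands and 20 receptors, and 16 members, 13 ligands and 3 receptors, had at least 30 reads in one library. Chemokines are small secreted proteins that draw leukocytes towards a tissue, and they act through G protein-coupled receptors on the cells that respond. CC ligands such as Ccl2 attract monocytes, the CXC ligands of the Cxcl1 group attract neutrophils, and Cxcl9, Cxcl10 and Cxcl11 are interferon-inducible ligands of Cxcr3. In the heart, Ccl2 is known for recruiting monocytes after injury, and Cxcl12 with its receptors Cxcr4 and Cxcr7 for vessel growth and cell homing.

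Transcripts were measured by RNA sequencing in cardiomyocytes of CD1 mice taken at postnatal day 1 and kept in culture. Cells received the human microRNA mimic hsa-miR-199a-3p, the human mimic hsa-miR-590-3p, the control mimic cel-miR-67 from Caenorhabditis elegans, or a mock transfection. Each mimic was given at 50 nM by reverse transfection with a lipid reagent, and cells were harvested 72 h later. There was 1 library per condition, so no significance test was possible and no difference has a replicate check. The libraries held 38745528 (hsa-miR-199a-3p), 34452240 (hsa-miR-590-3p), 34255689 (cel-miR-67) and 31638930 (mock) reads. A ratio compares reads scaled to library totals and TMM factors (trimmed mean of M values), and its 95% interval covers counting error only. A difference of a microRNA was counted when it was at least 2-fold against cel-miR-67 and at least 2-fold in the same direction against mock, and only genes that averaged at least 1 CPM over all libraries entered. CPM are scaled reads per 1e6 reads.

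The labelled cell type was checked against its markers. All 14 cardiomyocyte markers were detected, with summed levels of 43991 CPM (hsa-miR-199a-3p), 45838 (hsa-miR-590-3p), 59270 (cel-miR-67) and 65946 (mock). By the criterion above 3 of the 14, Ttn, Ryr2 and Pln, were lower under hsa-miR-199a-3p, against 2.34% of all genes, and 0 under hsa-miR-590-3p. The list was lower under both human mimics, with log2 medians against cel-miR-67 and mock of -0.40 and -0.56 (hsa-miR-199a-3p) and -0.32 and -0.49 (hsa-miR-590-3p). Fibroblast markers were also present, 12 of 12, at 17112 to 18247 CPM. The 18 macrophage and monocyte markers summed to 10.3 CPM under hsa-miR-199a-3p, 8.80 under hsa-miR-590-3p, 11.0 under cel-miR-67 and 25.5 in mock, so this list was highest in mock. Neutrophil markers summed to 0.625 to 0.905 CPM, with Ly6g and Camp at 0 reads throughout. Lymphocyte markers summed to 0.897 to 1.71 CPM, and Cd3e, Cd3g, Cd79b and Nkg7 were at 0 reads in all 4 libraries. Mast cell and platelet markers summed to 9.12 to 11.7 CPM, and erythroid markers to 0.299 to 0.472 CPM, with Hbb-b1 at 0 in all. Endothelial markers summed to 279 to 338 CPM, epicardial markers to 445 to 569 CPM, and smooth muscle and pericyte markers to 5053 to 6913 CPM.

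The mature sequence of mouse miR-199a-3p from RefSeq (GRCm38.p6) is shown because its mimic is the one with which members met the criterion. It is encoded at chr1:162217883-162217904 on the plus strand and at chr9:21496498-21496519 on the minus strand, and the capitals mark the seed, bases 2 to 8, with which a microRNA pairs to its targets.
mmu-miR-199a-3p: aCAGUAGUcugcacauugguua

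Promoter windows of RefSeq (GRCm38.p6), from 250 bases before to 50 after the gene start, were at hand for 12 of the 16 members. None was at hand for Ccl2, Ccl7, Ccl5 and Cxcl16, so no motif was searched in these genes. Those of Cxcl1 and Cxcl10 are shown because these ligands separated the libraries in different ways. The first lies at chr5:90890995-90891294 on the plus strand and the second at chr5:92348840-92349139 on the minus strand. Capitals mark matches, on either strand, to the NF-kappaB consensus motif or to GAAANNGAA, a core of the interferon-stimulated response element. These motifs and TATAAA, the TATA box, were chosen with the expression values known.
Cxcl1: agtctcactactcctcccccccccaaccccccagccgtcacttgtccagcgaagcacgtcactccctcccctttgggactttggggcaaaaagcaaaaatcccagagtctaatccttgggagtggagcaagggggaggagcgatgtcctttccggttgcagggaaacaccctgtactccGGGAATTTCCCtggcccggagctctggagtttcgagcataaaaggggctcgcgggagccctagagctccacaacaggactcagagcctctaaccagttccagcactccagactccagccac
Cxcl10: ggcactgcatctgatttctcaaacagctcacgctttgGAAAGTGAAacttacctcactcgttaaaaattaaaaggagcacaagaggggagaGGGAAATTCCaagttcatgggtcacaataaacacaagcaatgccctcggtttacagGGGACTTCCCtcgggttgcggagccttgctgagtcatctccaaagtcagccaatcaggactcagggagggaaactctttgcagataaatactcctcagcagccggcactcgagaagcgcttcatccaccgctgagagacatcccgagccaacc

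In the Cxcl1 window the NF-kappaB consensus matched at -71 on the gene strand and, overlapping it, at -70 on the opposite strand, counted from the start. In the Cxcl10 window it matched at -159 and at -103 on the gene strand. Ccl9, Ccl20 and Ccl27a also held this motif, so 5 of the 12 members did, against 4.51% of all 32851 RefSeq windows, with Ccl27a and Ccl25 having more than 1 window. GAAANNGAA matched at -213 in the Cxcl10 window and in no other of the 12 members' windows. This count of 1 of 12 is near the 8.56% of all windows that held it, so it does not set the members apart. TATAAA lay in windows of 5 of the 12, Ccl9, Ccl25, Cx3cl1, Cxcr4 and Cxcr7, against 13.6% of all windows. On either strand, it began at -6 in Cx3cl1, -8 in Cxcr7, -16 in Ccl25, -32 and -30 in Cxcr4, and -224, -94 and -92 in Ccl9. Whether any of them works as a TATA box was not tested. These are matches of letters and not tested sites.

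Per length, Cxcl12, a ligand made by stromal cells, was the highest member in every library. Its level, in the RPKM of the authors (reads per length and depth) summed over transcript records, was 47.1 under hsa-miR-199a-3p, 52.3 under hsa-miR-590-3p, 61.4 under cel-miR-67 and 47.6 in mock. Ccl2 came next under hsa-miR-590-3p, cel-miR-67 and in mock, while under hsa-miR-199a-3p Cx3cl1 exceeded it. Cx3cl1, the membrane-anchored ligand fractalkine, stood at 16.6, 10.9, 18.8 and 12.3 RPKM in the same order of libraries. The scavenging receptor Cxcr7, today named Ackr3, was the highest receptor, at 4.98, 4.59, 3.58 and 4.53 RPKM. Summed over all 39 ligands, levels were 218 CPM (hsa-miR-199a-3p), 238 (hsa-miR-590-3p), 284 (cel-miR-67) and 255 (mock), and over the 20 receptors 19.2, 17.7, 17.0 and 19.8 CPM.

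**Figure D1:**
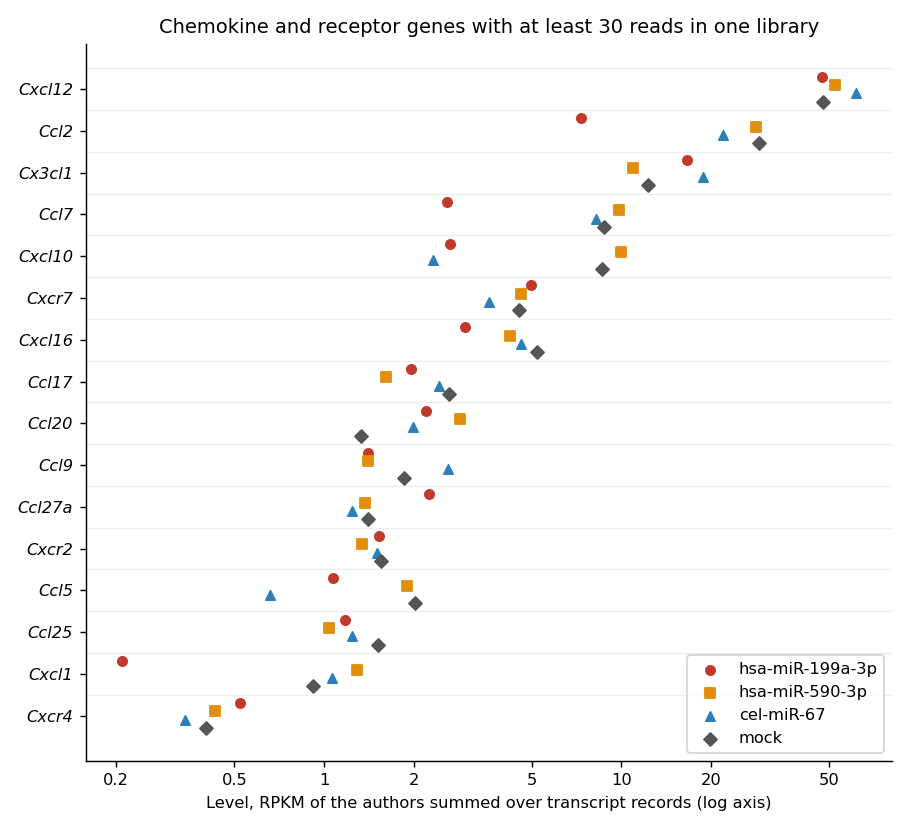
Level of the 16 members with at least 30 reads in one library, in RPKM on a log axis, with 1 point per library (circle hsa-miR-199a-3p, square hsa-miR-590-3p, triangle cel-miR-67, diamond mock). Ccl2, Ccl7 and Cxcl1 are lowest under hsa-miR-199a-3p and lie close together in the other 3 libraries, while Cxcl10 and Ccl5 are low under hsa-miR-199a-3p and cel-miR-67.

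Ccl2 and Ccl7, the monocyte-attracting CC ligands with 30 reads or more, were lower under hsa-miR-199a-3p than in each other library. Ccl2, the main monocyte attractant, which signals through Ccr2, had 228 reads under hsa-miR-199a-3p, 787 under hsa-miR-590-3p, 608 under cel-miR-67 and 740 in mock. The hsa-miR-199a-3p library was the lowest, and the other 3 lay closer together, with cel-miR-67 at 0.746 (95% counting interval 0.669 to 0.832) of mock. The ratio of hsa-miR-199a-3p to cel-miR-67 was 0.311 (0.266 to 0.363) and to mock 0.233 (0.20 to 0.270). In cultures of several cell types, fewer cells of a type and less RNA per cell cannot be told apart.

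Ccl7, a ligand of the same receptor group whose gene is the next protein-coding gene to Ccl2 in GRCm38.p6, had 92 reads under hsa-miR-199a-3p, 309 under hsa-miR-590-3p, 257 under cel-miR-67 and 253 in mock. Again only the hsa-miR-199a-3p library stood low, with ratios of 0.297 (0.232 to 0.379) to cel-miR-67 and 0.274 (0.214 to 0.350) to mock. Within each library, reads of Ccl2 exceeded those of Ccl7 by 2.48-fold (hsa-miR-199a-3p), 2.55-fold (hsa-miR-590-3p), 2.37-fold (cel-miR-67) and 2.92-fold (mock), a comparison that needs no scaling between libraries. All reads of both genes were uniquely placed. The other genes of this group, Ccl8 and Ccl12, had at most 1 read in any library, and Ccl11, the eotaxin gene beside Ccl7, had 0.

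Of the 12 members that averaged at least 1 CPM, Ccl2 and Ccl7 (16.7%) were the 2 that were lower under hsa-miR-199a-3p by the criterion. Over all 13484 genes, 2.34% were lower. No member was higher under hsa-miR-199a-3p, against 2.40% of all genes. The median log2 ratio of the 12 members was -0.27 against cel-miR-67 and -0.49 against mock, and that of all genes was -0.0048 and -0.011. Of the 12 members 9 were below cel-miR-67 and 9 below mock, against 50.5% and 51.2% of all genes. Under hsa-miR-590-3p 9 of the 12 were below mock as well.

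Beside this result, Postn, a matrix gene of fibroblasts and also of other mesenchymal cells, was lower under hsa-miR-199a-3p. It had 5897 reads there, 20309 with cel-miR-67 and 13543 in mock. The pericyte gene Rgs5 had 43, 78 and 72 reads in that order. Of 9 measured smooth muscle and pericyte markers Rgs5 alone met the criterion, and their log2 medians were -0.07 against cel-miR-67 and -0.05 against mock. That list summed to 6913 CPM with hsa-miR-199a-3p, 5976 with cel-miR-67 and 5053 in mock. The summed fibroblast list, led by Col1a1, was 17112 CPM with hsa-miR-199a-3p, 18247 with cel-miR-67 and 17692 in mock. By gene, 7 of its 12 members lay below both controls and 4 above under hsa-miR-199a-3p, and 3 and 4 under hsa-miR-590-3p. The share of such splits over all genes was not computed, so these counts have no background to be read against. The fibroblast list medians of hsa-miR-199a-3p were -0.47 against cel-miR-67, -0.10 against mock and -0.46 against hsa-miR-590-3p on the log2 scale. Those of all genes were -0.0048, -0.011 and -0.0030. Against hsa-miR-590-3p, Dcn and Postn were at least 2-fold lower. Macrophage markers stood at 10.3 CPM under hsa-miR-199a-3p, against 11.0 CPM under cel-miR-67, where the ratios were 0.311 for Ccl2 and 0.297 for Ccl7, and against 25.5 CPM in mock, where they were 0.233 and 0.274. The part of cell composition in the chemokine result was not tested.

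**Figure D2:**
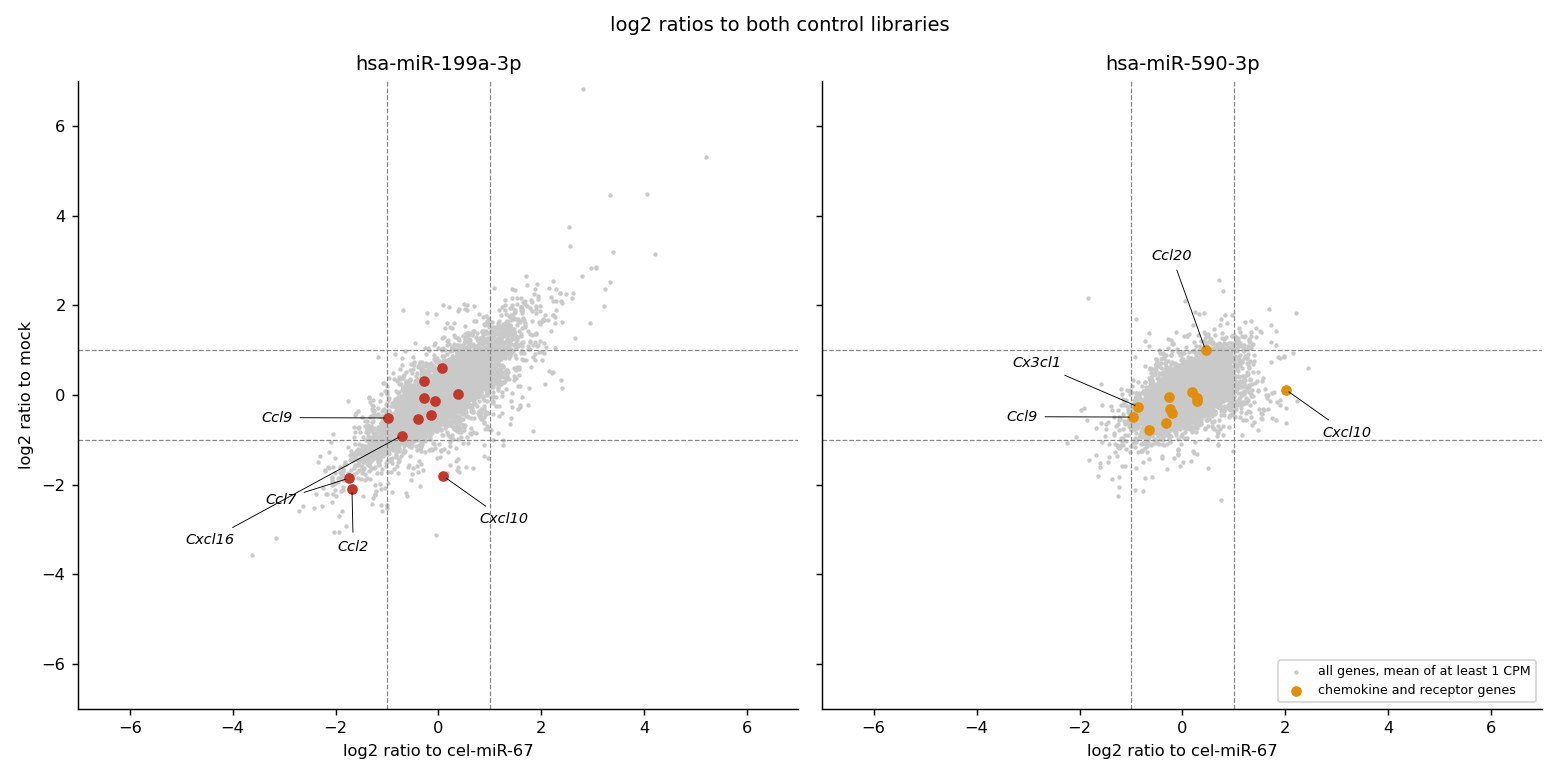
Each point is a gene with a mean of at least 1 CPM, placed by its log2 ratio to cel-miR-67 (horizontal) and to mock (vertical), under hsa-miR-199a-3p (left) and hsa-miR-590-3p (right), and the coloured points are the 12 chemokine and receptor genes. Dashed lines mark 2-fold, and Ccl2 and Ccl7 are the 2 members in the lower left corner on the left, while Cxcl10 is beyond 2-fold on 1 axis only in each panel.

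The neutrophil-attracting CXC ligands were weakly expressed. Cxcl1, which acts through Cxcr2, had 8 reads under hsa-miR-199a-3p, 43 under hsa-miR-590-3p, 35 under cel-miR-67 and 28 in mock. The pattern across libraries was that of Ccl2, with the hsa-miR-199a-3p library alone at the low end. Its ratio was 0.190 (0.0761 to 0.417) to cel-miR-67 and 0.216 (0.0849 to 0.486) to mock, so both intervals lay below 0.5. With a mean under 1 CPM it was outside the 12 members above. Counted among the 16 members with at least 30 reads in one library, it made 3 lower under hsa-miR-199a-3p (18.8%), against 2.42% of the 14237 genes that pass the same minimum, and 0 higher, against 3.20%. That minimum takes genes in through their highest library, so the members that passed it are a selection. Its neighbours in the gene cluster, Cxcl2 and Cxcl15, and also Cxcl3 and Cxcl5, stayed at or under 11 reads in every library.

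Cxcl10 and Ccl5 separated the libraries in another way, and here the controls differed from each other. Cxcl10, an interferon-inducible attractant of T cells, had 109 reads under hsa-miR-199a-3p, 364 under hsa-miR-590-3p, 85 under cel-miR-67 and 289 in mock. The hsa-miR-590-3p and mock libraries were high and the hsa-miR-199a-3p and cel-miR-67 libraries low. Thus the ratio of hsa-miR-199a-3p was 0.285 (0.226 to 0.356) to mock but 1.07 (0.795 to 1.43) to cel-miR-67. That of hsa-miR-590-3p was 4.05 (3.19 to 5.19) to cel-miR-67 but 1.08 (0.925 to 1.27) to mock, and neither met the criterion.

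Cxcl10 was therefore the 1 member of 12 (8.33%) that was at least 2-fold lower under cel-miR-67 than in mock, with a ratio of 0.267 (0.207 to 0.341), against 1.33% of all genes. No member was at least 2-fold higher under cel-miR-67 than in mock, against 0.645% of all genes. Ccl5, which attracts T cells and monocytes, had 24 reads under hsa-miR-199a-3p, 38 under hsa-miR-590-3p, 13 under cel-miR-67 and 37 in mock. It was lowest under cel-miR-67, with a ratio to mock of 0.319 (0.156 to 0.614), while both human mimics lay between the controls. With Ccl5, 2 of the 16 members (12.5%) were at least 2-fold lower under cel-miR-67 than in mock, and 0 were higher. Of genes with the same minimum of reads, 1.68% were lower and 1.09% higher. Ccl5 passed that minimum only in the hsa-miR-590-3p and mock libraries, so it was taken in through libraries where it was high. The count with Ccl5 is therefore not independent of how the members were selected. The remaining Cxcr3 ligands, Cxcl9 and Cxcl11, had at most 5 reads in any library.

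Genes of interferon signalling also differed between the controls. Of 13 such genes, 2 were at least 2-fold lower under cel-miR-67 than in mock and 0 higher, against 1.33% and 0.645% of all genes, and the list median was -0.48 on the log2 scale. They were Irf7, a transcription factor of the interferon response, with 2218 reads under hsa-miR-199a-3p, 2093 under hsa-miR-590-3p, 816 under cel-miR-67 and 2308 in mock, and Ifih1, a sensor of double-stranded RNA, with 923, 1487, 708 and 1607. For Ifih1 the same libraries were high and low as for Cxcl10, though only a small share of its reads was uniquely placed, while Irf7 was low under cel-miR-67 alone. Macrophage markers were lower under cel-miR-67 than in mock as well, 11.0 against 25.5 CPM, with Lyz2 at 148 against 349 reads and Cd68 at 32 against 65. This list stood at 8.80 CPM under hsa-miR-590-3p, and its part in the Cxcl10 difference was not tested.

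**Figure D3:**
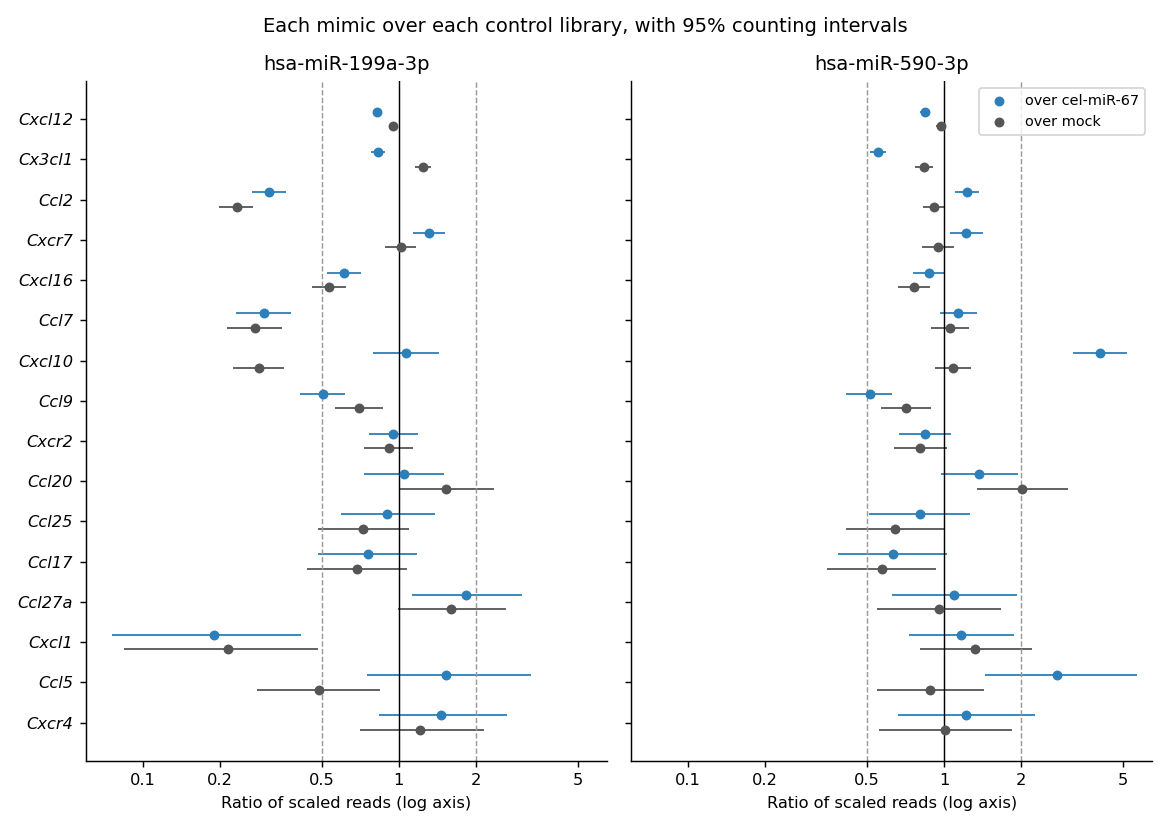
Ratio of scaled reads of hsa-miR-199a-3p (left) and hsa-miR-590-3p (right) to cel-miR-67 (blue) and to mock (grey) for 16 members ordered by mean scaled reads, on a log axis with bars for 95% counting intervals. On the left both points of Ccl2, Ccl7 and Cxcl1 lie below the dashed line at 0.5, whereas on the right no gene has both points beyond 2-fold.

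Membrane-anchored ligands, which serve as adhesion molecules until they are cut from the surface, showed smaller differences. Cx3cl1 had 2024 reads under hsa-miR-199a-3p, 1185 under hsa-miR-590-3p, 2028 under cel-miR-67 and 1226 in mock. Here the hsa-miR-199a-3p and cel-miR-67 libraries were the higher ones, the reverse of Cxcl10, so that within a library Cx3cl1 had 18.6-fold (hsa-miR-199a-3p), 3.26-fold (hsa-miR-590-3p), 23.9-fold (cel-miR-67) and 4.24-fold (mock) the reads of Cxcl10. The ratio of cel-miR-67 to mock was 1.5 (1.4 to 1.61), that of hsa-miR-590-3p to cel-miR-67 0.553 (0.514 to 0.594), and none reached 2-fold.

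Cxcl16, which binds Cxcr6 and takes up oxidised lipoprotein, had 284 reads under hsa-miR-199a-3p, 356 under hsa-miR-590-3p, 386 under cel-miR-67 and 402 in mock. It was lowest under hsa-miR-199a-3p, at 0.611 (0.522 to 0.714) of cel-miR-67 and 0.533 (0.456 to 0.622) of mock. Adam10, a protease that sheds both of these ligands, met the criterion under hsa-miR-199a-3p. It had 2741 reads there, 6283 under hsa-miR-590-3p, 7032 under cel-miR-67 and 5099 in mock, a ratio of 0.324 (0.310 to 0.338) to cel-miR-67 and 0.406 (0.387 to 0.425) to mock. Adam10 was the only gene of 15 in the list of ligand processing and presentation that met it in either direction under either microRNA, and Hspg2, a heparan sulfate proteoglycan and the most abundant of them, stood at 0.864 and 1.05 of cel-miR-67 and mock.

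Cxcl12 reads summed over its 3 transcript records were nearly level, 5535 under hsa-miR-199a-3p, 4949 under hsa-miR-590-3p, 5575 under cel-miR-67 and 4393 in mock. The ratio of hsa-miR-199a-3p was 0.825 (0.794 to 0.856) to cel-miR-67 and 0.951 (0.914 to 0.989) to mock. With library totals alone as the scale the ratio to mock turns to the other side of 1, at 0.04 on the log2 scale in place of -0.07, and that of hsa-miR-590-3p at 0.05 in place of -0.05. The records are variant 1, which encodes the common alpha form, variant 2 (beta) and variant 3 (gamma), and reads shared between them cannot be assigned to one.

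Reads placed on a single Cxcl12 record showed more difference than the sum. Variant 1 had 1656 such reads under hsa-miR-199a-3p, 1850 under hsa-miR-590-3p, 2397 under cel-miR-67 and 1533 in mock. It was highest under cel-miR-67, and the ratio of hsa-miR-199a-3p was 0.574 (0.539 to 0.611) to cel-miR-67 and 0.815 (0.760 to 0.874) to mock. Variant 3 had 625, 616, 532 and 581 reads in the same order, with ratios of 0.976 (0.868 to 1.10) and 0.812 (0.724 to 0.910). Variant 2 had 47, 28, 20 and 34 reads, mostly too few to order the libraries. Its intervals left out 1 only where cel-miR-67, the lowest library, was compared with hsa-miR-199a-3p or mock. The ratio of hsa-miR-199a-3p to cel-miR-67 was 1.95 (1.13 to 3.48), and that of cel-miR-67 to mock 0.534 (0.292 to 0.955).

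**Figure D4:**
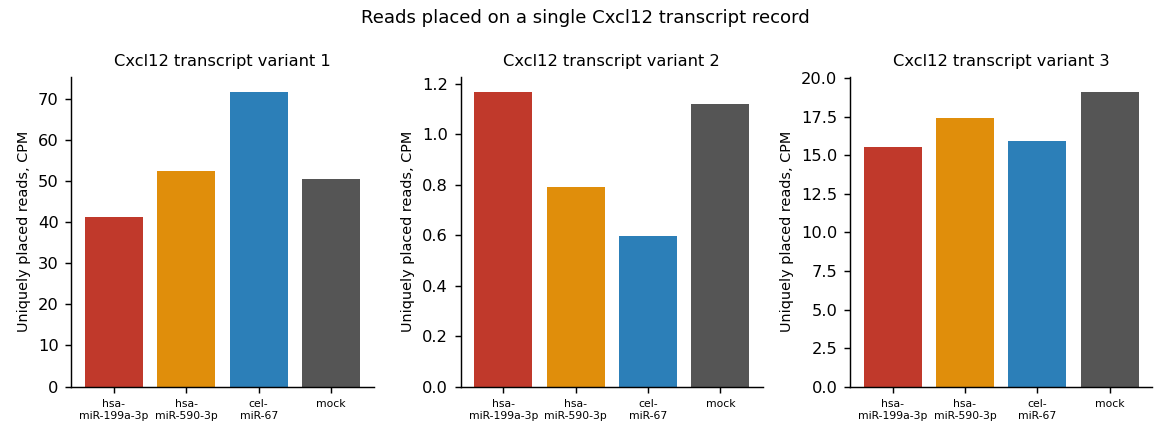
Reads placed on a single Cxcl12 transcript record, in CPM, with 1 bar per library (hsa-miR-199a-3p, hsa-miR-590-3p, cel-miR-67, mock) and 1 panel per variant, each with its own vertical axis from 0. Variant 1 stands at 41.1, 52.3, 71.7 and 50.4 CPM, and variant 3 between 15.5 and 19.1 CPM.

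Ccl9, a CC ligand of myeloid cells, had 164 reads under hsa-miR-199a-3p, 146 under hsa-miR-590-3p, 270 under cel-miR-67 and 177 in mock. Both microRNA libraries were below both controls, at 0.504 (0.413 to 0.615) and 0.512 (0.415 to 0.628) of cel-miR-67, their shared control, and at 0.699 (0.562 to 0.870) and 0.709 (0.566 to 0.888) of mock. Ccl20, the ligand of Ccr6, had 73 reads under hsa-miR-199a-3p, 84 under hsa-miR-590-3p, 58 under cel-miR-67 and 36 in mock. It was lowest in mock, and the ratio of hsa-miR-590-3p was 2.01 (1.34 to 3.05) to mock and 1.37 (0.969 to 1.95) to cel-miR-67. The criterion takes log2 ratios with a small count added, and there the ratio to mock was 0.996, so neither ratio met it. Both are uncertain, because 11.6% of Ccl20 reads were uniquely placed.

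Ccl17, a ligand of Ccr4, had 41 reads under hsa-miR-199a-3p, 30 under hsa-miR-590-3p, 45 under cel-miR-67 and 45 in mock. Ccl25, a ligand of Ccr9, had 50, 39, 46 and 52 in that order. For both genes the intervals of hsa-miR-199a-3p against each control held 1, so no difference of that library was detectable at this depth. Under hsa-miR-590-3p both were below mock, at 0.573 (0.349 to 0.930) for Ccl17 and 0.645 (0.414 to 0.996) for Ccl25, while their intervals against cel-miR-67 held 1. The Ccl25 difference is uncertain, because 19.8% of its reads were uniquely placed. With unique reads alone its log2 ratio to mock was 0.32 in place of -0.63. Ccl27a, a ligand of Ccr10, had 57, 30, 26 and 27 reads, highest under hsa-miR-199a-3p with a ratio of 1.82 (1.13 to 3.02) to cel-miR-67 and 1.59 (0.991 to 2.62) to mock. It is uncertain, because 3.57% of its reads were uniquely placed and the near-identical Ccl27b shares sequence with it.

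No receptor met the criterion under either microRNA. Cxcr7 had 498 reads under hsa-miR-199a-3p, 408 under hsa-miR-590-3p, 316 under cel-miR-67 and 370 in mock. It was lowest under cel-miR-67, to which hsa-miR-199a-3p had a ratio of 1.31 (1.13 to 1.51), and it was level with mock at 1.02 (0.886 to 1.17). Cxcr2, the receptor of Cxcl1, had 180, 140, 157 and 149 reads, and all its intervals against the controls held 1. Of its reads 77.0% were uniquely placed. Cxcr4, the signalling receptor of Cxcl12, had 37, 27, 21 and 23 reads, also with every such interval holding 1.

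The receptors of Ccl2, Cxcl10, Cx3cl1 and Cxcl16 fall under 30 reads in every library and are named after their values were seen. Ccr2, the receptor of Ccl2 and Ccl7, had 2 reads under hsa-miR-199a-3p, 0 under hsa-miR-590-3p, 1 under cel-miR-67 and 2 in mock. Cxcr3, the receptor of Cxcl10, had 0 reads in all 4 libraries, which allows up to 0.0745, 0.0849, 0.0897 and 0.0987 CPM in the same order, taking 3 reads as the limit. Cx3cr1, the receptor of Cx3cl1, had 12, 8, 7 and 13 reads. Cxcr6, the receptor of Cxcl16, had 5, 5, 14 and 12 reads, fewer under both microRNAs but with a mean under 1 CPM. Its interval of hsa-miR-590-3p to mock, 0.0989 to 1.09, held 1, and its other intervals against the controls ended at 0.872 to 0.993. In all, 43 members had fewer than 30 reads in every library, at most 23, and 11 of them, 6 ligands and 5 receptors, had 0 throughout.

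Under hsa-miR-590-3p none of the 12 members was higher or lower by the criterion, where 0.349% of all genes were higher and 0.230% lower. The same held for the 16 with at least 30 reads in one library, against 0.534% higher and 0.379% lower. The member medians were -0.22 against cel-miR-67 and -0.20 against mock on the log2 scale, with 7 and 9 of 12 below 0. The medians of all genes were -0.00064 and -0.0057, with 50.1% and 50.9% below 0. Ccl2 and Ccl7, low under hsa-miR-199a-3p, stood at 1.22 (1.10 to 1.36) and 1.14 (0.961 to 1.35) of cel-miR-67 and at 0.914 (0.826 to 1.01) and 1.05 (0.886 to 1.24) of mock under hsa-miR-590-3p.

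Set directly against hsa-miR-590-3p, hsa-miR-199a-3p had 3 of 12 members (25.0%) at least 2-fold lower, Ccl2, Ccl7 and Cxcl10, against 2.70% of all genes, and none higher, against 1.87%. The ratios were 0.254 (0.218 to 0.295) for Ccl2, 0.261 (0.205 to 0.331) for Ccl7 and 0.263 (0.210 to 0.326) for Cxcl10. Cxcl1 stood at 0.163 (0.0663 to 0.351), and made 4 of the 16 members (25.0%) lower. Of genes with the same minimum of reads, 2.99% were lower and 2.68% higher. Cxcl1 passed that minimum under hsa-miR-590-3p but not under hsa-miR-199a-3p, so the count with Cxcl1 is not independent of how the members were selected. Cx3cl1 was the member furthest to the other side among the 12, with 1.5 (1.39 to 1.61). Ccl9 and Cxcl12 lay near 1, at 0.986 (0.784 to 1.24) and 0.982 (0.945 to 1.02). The comparison uses both microRNA libraries again, so it is not separate from those above.

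**Figure D5:**
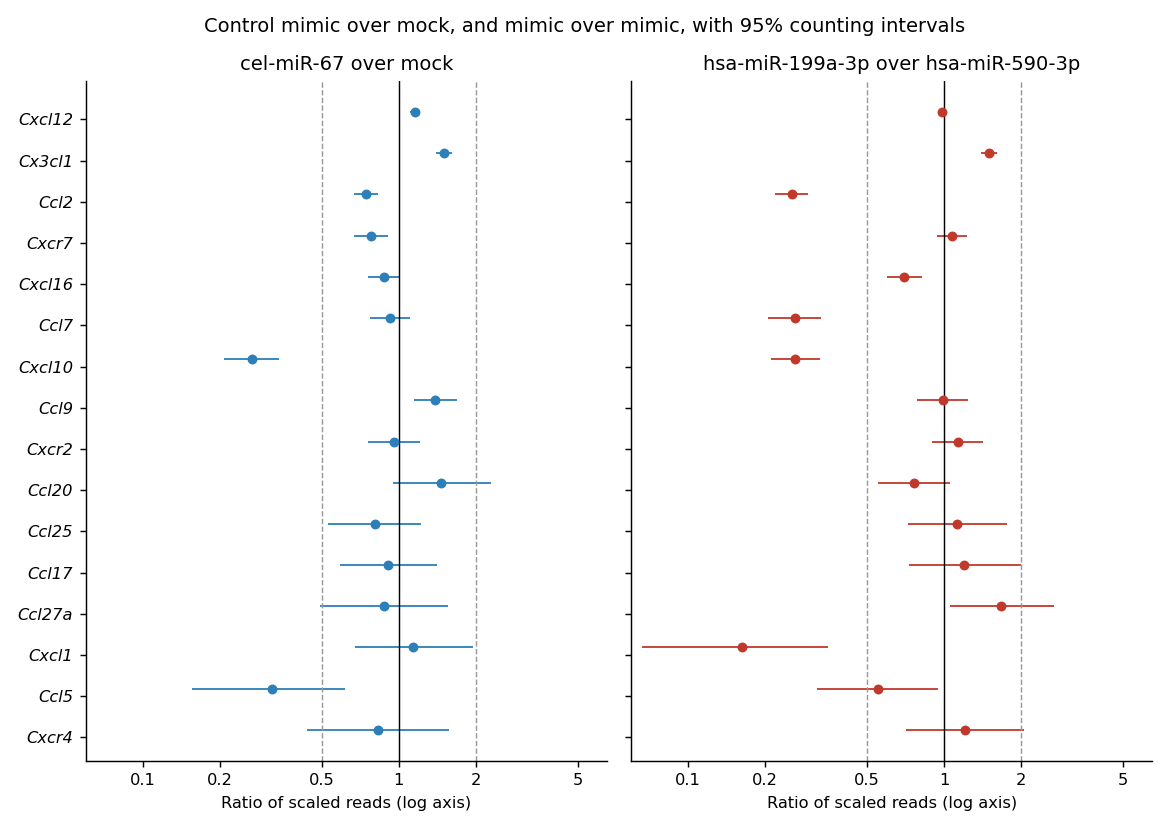
Ratio of scaled reads of cel-miR-67 to mock (left) and of hsa-miR-199a-3p to hsa-miR-590-3p (right) for the same 16 members, on a log axis with 95% counting intervals. Cxcl10 lies below 0.5 in both panels, Ccl2, Ccl7 and Cxcl1 only on the right, and Cx3cl1 lies at 1.5 in both.

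Other genes of the chemokine system, its signalling and its upstream inputs were taken from 8 lists with 106 genes of at least 1 CPM. Under hsa-miR-199a-3p 4 of them were lower and 1 higher by the criterion, where 2.34% of all genes were lower and 2.40% higher, and under hsa-miR-590-3p 0 and 0. These counts are near the shares of all genes or below them, so the genes that follow are described singly. Tlr4, the receptor of bacterial lipopolysaccharide and an activator of NF-kappaB, had 385 reads under hsa-miR-199a-3p, 946 under hsa-miR-590-3p, 1034 under cel-miR-67 and 786 in mock. Its ratios were 0.309 (0.274 to 0.348) to cel-miR-67 and 0.370 (0.326 to 0.418) to mock, and it was the 1 gene of 20 receptor and adaptor genes to pass, while Il6st, the most abundant, stood at 0.898 and 0.790.

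Bcl3, an IkappaB-like partner of NF-kappaB subunits, had 77 reads under hsa-miR-199a-3p, 217 under hsa-miR-590-3p, 240 under cel-miR-67 and 257 in mock. The hsa-miR-199a-3p library was again alone at the low end, at 0.266 (0.203 to 0.346) of cel-miR-67 and 0.226 (0.173 to 0.293) of mock. Of the 21 NF-kappaB genes Bcl3 alone met the criterion. Of them 13 lay below both controls and 3 above under hsa-miR-199a-3p, and 9 and 6 under hsa-miR-590-3p. The share of such splits over all genes was not computed, so these counts have no background to be read against. The medians of the 21 genes under hsa-miR-199a-3p were -0.10 and -0.19 on the log2 scale, against -0.0048 and -0.011 for all genes. Tab2, the most abundant, stood at 0.962 and 1.00. Il6, a cytokine that is induced together with Ccl2 in many cells, had 36 reads under hsa-miR-199a-3p, 61 under hsa-miR-590-3p, 71 under cel-miR-67 and 84 in mock. Its ratios were 0.421 (0.274 to 0.637) and 0.323 (0.213 to 0.483), and of 5 measured inflammatory cytokines it alone passed. Il1b and Csf2 had 0 reads in all libraries, and Csf1, the most abundant, stood at 0.654 and 0.700.

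The 1 higher gene was Rgs2, which shortens signalling by G proteins. It had 694 reads under hsa-miR-199a-3p, 207 under hsa-miR-590-3p, 131 under cel-miR-67 and 163 in mock, ratios of 4.40 (3.65 to 5.34) and 3.21 (2.71 to 3.83). It was the only one of 19 receptor signalling genes that met the criterion, and Gnai2, the inhibitory G protein subunit through which chemokine receptors act and the most abundant of them, stood at 1.16 and 1.37. None of 8 factors that bind or degrade chemokine mRNA met it, with medians of -0.03 and 0.02 on the log2 scale, and Zfp36l1, the most abundant, stood at 0.667 and 0.842. Interferon signalling had 0 of 13 genes past it under hsa-miR-199a-3p, with medians of 0.11 and -0.26.

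Among 5 measured chemokine-system genes outside the symbol rule, none met it either. Mif, a cytokine that binds Cxcr2 and Cxcr4, was the most abundant, at 1.42 (1.35 to 1.48) of cel-miR-67 and 1.33 (1.27 to 1.39) of mock under hsa-miR-199a-3p. Ccrl1, an atypical receptor that removes Ccl19, Ccl21 and Ccl25 and is today named Ackr4, had 85, 61 and 81 reads under the 3 mimics, hsa-miR-199a-3p, hsa-miR-590-3p and cel-miR-67, against 31 in mock. It was the 1 gene of the 106 at least 2-fold higher under cel-miR-67 than in mock, at 2.37 (1.55 to 3.72).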

How the data were processed

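The 4 libraries were grouped by the treatment in the labels, 1 per condition. The authors deposited, for 36065 transcript records of RefSeq, the total count, the uniquely placed count and RPKM, per the file headers. The deposited RPKM follows from the total count, record length and summed reads. The submitters' processing notes name CASAVA 1.8 and mm8 without a role. The aligner and the treatment of shared reads are not given in the sources used here.

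Total reads were summed per symbol of the file headers, 27207 genes. Scaling used TMM factors from edgeR 4.0.16 under R 4.3.3, and no edgeR test. The 2-fold criterion took log2 CPM ratios (prior count 0.5) for the 13484 genes averaging at least 1 CPM. Printed ratios carry no prior, and their 95% intervals are exact conditional binomial (Clopper-Pearson). They cover counting error only, since reads carry no molecular identifiers and may be copies of 1 molecule. With 0 residual degrees of freedom no p-value was computed. The criterion was run on simulated counts with counting error only and large planted changes in well-counted genes. That checks the computation, and cannot tell how the criterion fares with variation between cultures or near 1 CPM. Python 3.11.15, numpy 2.4.6, pandas 2.3.3, scipy 1.17.1 and matplotlib 3.10.9 were used.

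The members and lists were chosen with earlier results of these data known. Named were all members with at least 30 reads in one library. Of each pathway list, up to 4 genes that met the criterion and the most abundant were named, and of each marker list examples of these and those at 0. A gene that this rule would name is not reported here. Current symbols were matched by accession for 27926 records (77.4%). Promoter and microRNA sequences are from RefSeq (GRCm38.p6). That build differs from the one named in the labels, so it was used for sequences, names and neighbours only. Alternatives tried were scaling by library totals or by DESeq2 1.42.0 size factors, other minimum levels, a prior count of 2, unique reads, the RPKM of the authors, current symbols, 1.5-fold, and each control alone.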

Additional observations from a re-analysis of the deposited data

How the results depend on the processing

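With library totals, DESeq2 size factors, a prior count of 2, a mean of at least 5 CPM, RPKM or current symbols, 2 members were lower under hsa-miR-199a-3p. In these settings 235 to 316 of all 11074 to 13502 genes were lower. Over the 7 settings that give single-gene values, TMM included, log2 ratios of hsa-miR-199a-3p to cel-miR-67 and mock were -1.68 to -1.59 and -2.10 to -1.99 for Ccl2, and -1.75 to -1.65 and -1.86 to -1.75 for Ccl7. Without a filter on low counts, 59 members gave 3 higher and 8 lower under hsa-miR-199a-3p, 2 and 4 under hsa-miR-590-3p, 8 and 8 under cel-miR-67 against mock, and 11 and 12 for hsa-miR-199a-3p against hsa-miR-590-3p. Of all 27207 genes, 1624 and 1018, 881 and 653, 1735 and 1622, and 2297 and 1827 were then higher and lower in these comparisons. Unique reads gave 3 of 13 members lower under hsa-miR-199a-3p, against 289 of 12073 genes. Unique reads, and likewise a minimum of 30 reads in one library (chosen after seeing the data), gave 2 members lower under cel-miR-67 than in mock. Of all genes, 135 of 12073 and 239 of 14237 were then lower. At 1.5-fold 3 members were lower under hsa-miR-199a-3p, 1 member was lower under hsa-miR-590-3p and 1 higher under cel-miR-67 than in mock, where 1128, 184 and 376 of all 13484 genes were. Against cel-miR-67 alone 1 member, Cxcl10, was higher under hsa-miR-590-3p, and against mock alone 3 were lower under hsa-miR-199a-3p. For a single control the share of all genes was not computed, so these counts have no background to be read against. No named member's 2-fold difference under TMM turned sign. With unique reads, few for these genes, Ccl25 went to -1.23, against 0.17 under TMM, for hsa-miR-199a-3p over hsa-miR-590-3p, and Ccl27a to 1.58, against -0.07, for hsa-miR-590-3p over mock (log2). No paired analysis was possible because each condition has 1 library. With 1 library per condition nothing can be said about variation between cultures, and for Cxcl1, Ccl5 and Cxcr4 the low read counts limit precision.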

Other observations

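Ccr10, Ccl6, Xcr1 and Ccl28 had fewer than 30 reads in every library and were picked after their values were seen. Ccr10, the receptor of Ccl27 and Ccl28, had 23 reads under hsa-miR-199a-3p, 8 under hsa-miR-590-3p, 18 under cel-miR-67 and 4 in mock, so that the hsa-miR-199a-3p and cel-miR-67 libraries were the higher ones, as for Cx3cl1. Ccl6, a CC ligand of myeloid cells, had 23, 5, 13 and 8 reads in the same order. Xcr1, the receptor of Xcl1 on dendritic cells, had 6, 13, 14 and 17 reads and was lowest under hsa-miR-199a-3p. Ccl28, a mucosal ligand of Ccr10, had 12, 15, 15 and 15 reads and separated no library.

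Total reads of Ccl20 and Ccl25 were divided differently between their transcript records. For Ccl20, variant 1 held 63.0% of the reads under hsa-miR-199a-3p, 82.1% under hsa-miR-590-3p, 39.7% under cel-miR-67 and 44.4% in mock. For Ccl25, variant 2, a non-coding record, held 80.0%, 74.4%, 58.7% and 38.5% in that order. At most 10 reads of any of these records were uniquely placed in a library, so these shares rest on reads that more than 1 record could hold.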
